A study of Mus musculus with 6 samples.

Results

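The pericyte genes are 9 genes used to recognize pericytes, the mural cells that wrap capillaries: Rgs5, Pdgfrb, Des, Cspg4, Kcnj8, Abcc9, Higd1b, Mcam and Anpep. They were taken by symbol from the 55291 genes in the count tables, and all 9 were found. Their RNA was read in 6 libraries, 2 for each sorted population: cells labeled nipple-proximal Gpr125+, TEB-distal Gpr125+ or Gpr125-negative. All libraries came from mammary glands of 6-week-old Adgra3-lz/+ mice, with tissue of 5 mice pooled per sample by the series record, while the methods text gives fewer per preparation. In these mice a lacZ reporter is fused into one allele of Adgra3, the gene of the adhesion receptor Gpr125, so the Gpr125-negative cells carry the reporter allele as well. Cells were sorted for high CD49f (integrin α6) and for presence or absence of β-galactosidase activity, measured with the fluorogenic substrate FDG. Distal tissue contains the terminal end buds (TEB), the growing tips of the ducts, and the labels give no region for the Gpr125-negative cells. CD31, CD45 and Ter119, marks of endothelial cells, leukocytes and erythroid cells, were used to exclude cells before the sort, and no antibody to a product of the 9 genes is named in the gate. The methods also list, with a biotin tag like the antibodies of that exclusion, one to CD140a, the product of the fibroblast gene Pdgfra, so fibroblasts may have been depleted as well.

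Pericytes stabilize capillaries and share much of their cytoskeleton with vascular smooth muscle. Endothelial PDGF-B recruits them through the receptor encoded by Pdgfrb, and they express ATP-sensitive potassium channels that set vessel tone. In the mammary gland contractile genes such as Acta2 (smooth muscle α-actin) do not single out mural cells, because the myoepithelial cells of the basal layer express them too, so the 9 genes were read beside 12 contractile genes.

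Total counts per library were 20134890 to 37296640. Levels are given as CPM, counts per 1000000 after edgeR's TMM scaling, and 3 counts, taken as the smallest level shown, corresponded to 0.0645 to 0.147 CPM. This limit covers counting error only, since SMART-Seq HT libraries carry no molecular identifiers. Replicates varied widely, with a biological coefficient of variation of 0.967. Across the genes tested, log2 CPM correlated at 0.733 between the Gpr125-negative libraries and at 0.933 between the nipple-proximal libraries, and genes are not independent replicates. Adgra3 RNA was not higher in the libraries labeled Gpr125+, against what the labels name: it stood at 35.7 and 18.6 CPM in the libraries labeled Gpr125-negative, 15 and 4.83 CPM in those labeled TEB-distal and 19.2 and 12.3 CPM in those labeled nipple-proximal. The counts cover the whole gene and do not separate the reporter allele. The group names below are those of the labels, and every direction given is between libraries so labeled. No source names separate cultures or animals for the replicates beyond the pooled samples, so p-values measure the spread between these libraries.

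How restricted each of the 9 genes is to pericytes was not measured here. Of them, 3 were nearly absent, whereas Rgs5 reached 545 counts and Mcam 950 in Gpr125-negative replicate 2. Kcnj8 and Abcc9, which encode the pore and the regulatory subunit of the vascular ATP-sensitive potassium channel, and Higd1b, a mitochondrial protein gene, each had counts in only 1 of the 6 libraries. Of the wider list of 21 other mural genes, between 7 and 10 exceeded 3 counts in any library, Trpc6 was at 0 in all 6, and Heyl did not exceed 2 counts. Others were not sparse in every library: Rgs4 and Art3 held 623 and 641 counts in Gpr125-negative replicate 2, and at most 14 and 108 elsewhere. The list name is used here for the genes, not for a population of cells, whose presence was not tested.

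Promoter sequences are shown for Rgs5, whose level was uneven between libraries, its neighbor Rgs4, the potassium channel gene Kcnj8 and the contractile gene Acta2, since vascular smooth muscle and myoepithelial contractile genes are classical targets of serum response factor (SRF) through the CArG box. Each is the 250 bases before the RefSeq start on GRCm38.p6: chr1:169655251-169655500 (plus strand) for Rgs5, chr1:169747643-169747892 (minus strand) for Rgs4, chr6:142571615-142571864 (minus strand) for Kcnj8 and chr19:34255374-34255623 (minus strand) for Acta2. Sequences run 5′ to 3′, and capitals mark CArG-like matches with 1 deviation from the consensus.
Rgs5: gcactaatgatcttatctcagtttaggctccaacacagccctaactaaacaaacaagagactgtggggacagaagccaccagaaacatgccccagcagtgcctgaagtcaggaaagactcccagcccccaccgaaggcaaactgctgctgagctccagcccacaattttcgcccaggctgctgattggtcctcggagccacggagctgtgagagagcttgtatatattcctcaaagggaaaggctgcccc
Rgs4: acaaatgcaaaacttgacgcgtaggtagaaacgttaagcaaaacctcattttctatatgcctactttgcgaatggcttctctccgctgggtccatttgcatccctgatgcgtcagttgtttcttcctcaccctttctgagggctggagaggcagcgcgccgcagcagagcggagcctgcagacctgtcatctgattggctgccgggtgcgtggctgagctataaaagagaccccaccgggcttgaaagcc
Kcnj8: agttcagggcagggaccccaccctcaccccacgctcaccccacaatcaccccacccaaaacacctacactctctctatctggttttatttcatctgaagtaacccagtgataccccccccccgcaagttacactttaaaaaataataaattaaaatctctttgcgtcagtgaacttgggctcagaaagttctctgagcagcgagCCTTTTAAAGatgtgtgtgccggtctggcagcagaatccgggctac
Acta2: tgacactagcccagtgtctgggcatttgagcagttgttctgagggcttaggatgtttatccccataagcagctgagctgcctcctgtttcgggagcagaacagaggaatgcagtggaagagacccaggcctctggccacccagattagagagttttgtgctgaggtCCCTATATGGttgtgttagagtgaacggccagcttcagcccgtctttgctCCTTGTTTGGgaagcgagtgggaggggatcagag
The 10-base CArG consensus is the same on both strands, and overlapping matches were counted once per promoter. A RefSeq promoter was found for 7 of the 9 pericyte genes, all but Higd1b and Pdgfrb. Of the 12 contractile genes 9 had one, all but Myh11, Tagln and Actg2. Cald1 had more than 1, which gave 10 contractile promoters. None of those 7 promoters held the strict box, against 1.47% of 32851 promoters of all genes and 1 of 10 contractile promoters, that of Myl9. With up to 1 deviation, matches were found in 2 of 7 pericyte promoters (Cspg4 and Kcnj8), in 5 of 10 contractile promoters (Acta2, Myl9, Lmod1, Cald1 and Tpm1) and in 18.6% of all promoters. In Kcnj8 the match lay 46 to 37 bases before the start, and in Acta2 the matches lay 84 to 75 and 34 to 25 bases before it. Rgs5 and Rgs4 held none in this window. A match is a description of the letters, not a binding site.

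Rgs5, a regulator of G protein signaling and a widely used pericyte marker, lies at chr1:169655501-169695813. Gpr125-negative replicates 1 and 2 held 0 and 545 counts, TEB-distal replicates 0 and 0, and nipple-proximal replicates 11 and 334, or 18.5 CPM in Gpr125-negative replicate 2, 0.54 in nipple-proximal replicate 1 and 15.7 in nipple-proximal replicate 2. The signal was thus concentrated in 1 library of each of these groups, while 3 libraries listed none. A TEB-distal level below both nipple-proximal libraries was at least 74.2-fold lower on the group means, with the TEB-distal libraries set to 3 counts each. Against Gpr125-negative cells the bound was 84.3-fold, but the groups overlapped because Gpr125-negative replicate 1 was also at 0, and that bound rests on replicate 2 alone.

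Rgs4, which lies 45663 bases from Rgs5 with no protein-coding gene between them, was named because it is its neighbor and a mural gene itself. Its counts were 0, 623, 0, 0, 0 and 14 in the same order of libraries. It was therefore high in the Gpr125-negative library that was high for Rgs5, but in nipple-proximal replicate 2 it reached 0.659 CPM where Rgs5 reached 15.7 CPM. The RGS family holds 17 genes with Rgs4 and Rgs5 included. Rgs3 had 75 and 676 counts in Gpr125-negative libraries, 20 and 1 in TEB-distal, and 31 and 7 in nipple-proximal libraries. It too was highest in Gpr125-negative replicate 2, and was named after its values were seen. Rgs2, Rgs19 and Rgs11, the family members with the highest CPM, were present in every library. Among the 17 family genes, 14 passed the filter on low counts and edgeR called 0 in any comparison (3, 1 and 1 had an unadjusted p below 0.05, all lower in the first group, in TEB-distal against Gpr125-negative, nipple-proximal against Gpr125-negative and TEB-distal against nipple-proximal cells). Of the 3 in the first comparison, Rgs4 and Rgs5 are themselves 2, and Rgs16 is the third. DESeq2 on the compared libraries called 3, 1 and 2 of the family, all lower in the first group except 1 of the 2 in the last comparison. In the first comparison its calls of Rgs4 and Rgs5 rest on Gpr125-negative replicate 2 alone. Of all genes, 6.05%, 3.55% and 2.21% had an unadjusted p below 0.05, and DESeq2 called 4%, 2.02% and 2.29%.

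Pdgfrb, the receptor through which PDGF-B recruits mural cells, lies at chr18:61045150-61085061. Gpr125-negative replicates held 138 and 166 counts, TEB-distal replicates 54 and 1, and nipple-proximal replicates 5 and 37. Both Gpr125-negative libraries, at 2.97 and 5.62 CPM, stood above all 4 Gpr125+ libraries, which ranged from 0.034 to 2.11 CPM. Means were 4.3 ± 1.88 CPM in Gpr125-negative libraries, 1.07 ± 1.46 in TEB-distal ones and 0.994 ± 1.06 in nipple-proximal ones (SD, n = 2 each). The TEB-distal replicates themselves lay far apart, at 2.11 and 0.034 CPM. Pdgfrb is also expressed by fibroblasts, of which those with surface CD140a may have been removed. Pdgfra itself had 123 and 1 counts in Gpr125-negative libraries, 173 and 121 in TEB-distal, and 1 and 17 in nipple-proximal libraries. The 10 fibroblast genes, led by Dcn, Col1a2 and Lum, summed to 29.2 and 148 CPM in Gpr125-negative libraries, 90.1 and 179 in TEB-distal and 69.4 and 54.6 in nipple-proximal libraries, and their part in the Pdgfrb level was not tested.

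Des, which encodes the intermediate filament protein desmin of muscle and pericytes, lies at chr1:75360329-75368579 and had close replicates in every group. Its counts were 128 and 103 in Gpr125-negative libraries, 0 and 0 in TEB-distal, and 20 and 22 in nipple-proximal libraries. The 3 groups did not overlap, with means of 3.12 ± 0.52 CPM in Gpr125-negative libraries, 0 in TEB-distal cells and 1.01 ± 0.0378 CPM in nipple-proximal cells (SD, n = 2). The TEB-distal level was at least 28.5-fold lower than that of Gpr125-negative cells and at least 9.21-fold lower than that of nipple-proximal cells. Des shares exon sequence with the antisense gene Gm15179, and the counts do not use strand, so reads of the pair cannot be told apart.

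Cspg4, the NG2 proteoglycan of the pericyte surface, lies at chr9:56865033-56899870. Its counts were 208 and 9 in Gpr125-negative libraries, 0 and 0 in TEB-distal, and 0 and 50 in nipple-proximal libraries. Levels of 4.48 and 0.305 CPM put both Gpr125-negative libraries above the TEB-distal ones, a difference of at least 21.8-fold on the means. That bound rests mainly on Gpr125-negative replicate 1, since replicate 2 held 9 counts and alone gives at least 2.78-fold. The nipple-proximal libraries straddled them at 0 and 2.35 CPM. Cspg4 and Rgs5 were not high in the same Gpr125-negative library: Cspg4 was highest in replicate 1, where Rgs5 was at 0.

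Kcnj8 (chr6:142564837-142571614) had 16 counts, 0.786 CPM, in nipple-proximal replicate 1 and 0 in the other 5 libraries. Abcc9 (chr6:142587862-142702315), its partner 16247 bases away, had 11 counts, 0.237 CPM, in Gpr125-negative replicate 1 and 0 in the other 5. The subunits of this channel were therefore not detected together in any library at this depth. Their paralogs, Kcnj11 and Abcc8, which form the channel of the pancreatic β cell, were as sparse, and the 4 subunits summed to at most 1.33 CPM. Higd1b (chr11:102835849-102838040) had 2 counts in Gpr125-negative replicate 1 and none elsewhere. Abcc9 shares exon sequence with the antisense gene 5330439B14Rik, so its counts too are uncertain in origin.

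Mcam and Anpep are surface proteins that pericytes share with other cells. Mcam (CD146, chr9:44134469-44142727) is an adhesion molecule also found on endothelium and smooth muscle, and its counts were 36 and 950 in Gpr125-negative libraries, 136 and 782 in TEB-distal, and 221 and 306 in nipple-proximal libraries. It was the only member above 3 counts in all 6 libraries, and its groups overlapped fully, at 16.5 ± 22.2, 16 ± 15.1 and 12.6 ± 2.51 CPM (SD, n = 2). Mcam shares exon sequence with the antisense gene Gm10687, whose reads cannot be told apart from its own. Anpep (CD13, chr7:79821803-79861059) encodes an aminopeptidase also found on fibroblasts and myeloid cells, and its counts were 73 and 106 in Gpr125-negative libraries, 4 and 7 in TEB-distal, and 5 and 2 in nipple-proximal libraries. Both Gpr125-negative libraries, at 1.57 and 3.59 CPM, stood above all Gpr125+ libraries, which did not exceed 0.246 CPM, and the ratio of means was 13.1 against TEB-distal and 15.2 against nipple-proximal cells.

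**Figure D1:**
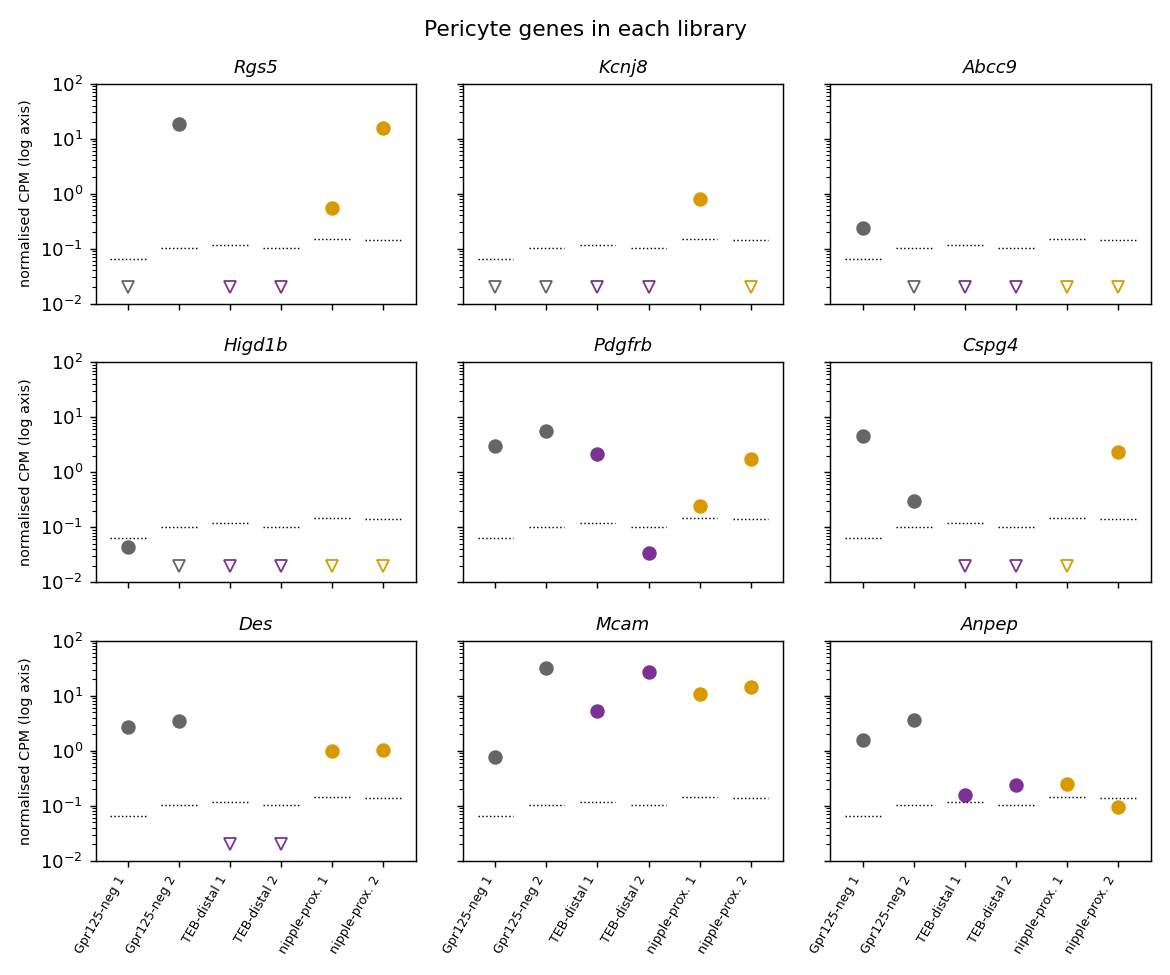
Normalised CPM on a log axis for each of the 9 pericyte genes in the 6 libraries. Filled circles are measured levels, open triangles are libraries with 0 counts, drawn at a fixed height, and dotted lines mark the level of 3 counts in each library. Rgs5, Des, Cspg4, Kcnj8, Abcc9 and Higd1b are at 0 in both TEB-distal libraries, whereas Mcam is present in all 6.

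Compared per kilobase of exon, Mcam had the highest mean level of the 9 genes in each group, at 4.92 CPM per kb in Gpr125-negative libraries, 4.76 in TEB-distal ones and 3.77 in nipple-proximal ones. The Gpr125-negative mean rests on replicate 2, at 9.61 CPM per kb, because in replicate 1 Mcam stood at 0.231, below Des (0.734), Pdgfrb (0.542), Anpep (0.38) and Cspg4 (0.375). Rgs5 followed in Gpr125-negative and nipple-proximal cells at means of 2.03 and 1.79 CPM per kb, each again set by replicate 2. In replicate 1 it was at 0 in Gpr125-negative cells and at 0.119 CPM per kb in nipple-proximal cells, there below Kcnj8 (0.308) and Des (0.262). Des, Pdgfrb and Anpep lay next to each other in Gpr125-negative cells, at 0.831, 0.784 and 0.624 CPM per kb, an order that changed between replicates. In TEB-distal cells Pdgfrb, at 0.195 CPM per kb, and Anpep, at 0.0477, were the only members besides Mcam with any counts. Of the 9 genes, 5 exceeded 3 counts in both Gpr125-negative libraries, 2 in both TEB-distal libraries (Mcam and Anpep) and 4 in both nipple-proximal libraries, and the numbers at 0 in both libraries were 1, 6 and 2. The number of all genes above 3 counts in at least 1 library of the group was 20043, 20248 and 19381, highest in the TEB-distal group, and 7, 3 and 7 of the 9 genes met that criterion.

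The comparison of TEB-distal Gpr125+ with Gpr125-negative cells asks what sets the reporter-positive cells of the growing tips apart. In these libraries 6 of the 9 genes passed edgeR's filter on low counts, and Kcnj8, Abcc9 and Higd1b did not. Calls required an adjusted p (Benjamini-Hochberg FDR) below 0.1 and at least a 2-fold change. The methods use these thresholds for the comparisons with Gpr125-negative cells and a stricter adjusted p between the Gpr125+ populations. By edgeR's quasi-likelihood test 0 of 6 members were called, against a background of 0% of the 17268 genes tested. All 6 estimates lay below 0, as did 8451 of the 17268 genes tested. Of the members 3 had an unadjusted p below 0.05 (background 6.05% of all genes in either direction): Rgs5 (edgeR FDR = 0.815), Des (FDR = 0.803) and Cspg4 (FDR = 0.821). These 3 had 0 counts in both TEB-distal libraries and passed the filter through the other groups, so they could only come out lower. The log2 fold change was −9.49 with a standard error of 2.57 for Des, but these fitted values depend on how counts of 0 are handled. DESeq2, the tool of the study's methods, called Rgs5, Des and Cspg4 lower, both on the 4 libraries compared (background 4% of genes) and on all 6 libraries (background 5.43%). For Des the DESeq2 FDR was 0.0101 on 4 libraries and 0.00074 on 6, in a range of 0.00074 to 1 over all alternatives tried.

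Anpep and Pdgfrb were lower without being called by either tool, and the estimate for Mcam was near 0. Anpep had a log2 fold change of −3.68 with a standard error of 1.86, Pdgfrb of −2 with 2.09 and Mcam of −0.04 with 1.5. Mcam's interval is too wide to show that the groups are alike. Both TEB-distal libraries lay below both Gpr125-negative libraries for 4 of the 6 members (Pdgfrb, Des, Cspg4 and Anpep), against 10% of all genes tested, and above them for 0, against 14%. Des and Cspg4 were at 0 counts in both TEB-distal libraries, so they could only come out lower. The shares of all genes are not limited to such genes, so the counts cannot be weighed against them. Without Gpr125-negative replicate 1, which held 0 counts of Rgs5, the edgeR log2 fold change of Rgs5 was −11.97, against −11.05 with all libraries. That fit, like the DESeq2 calls of Rgs5 in this comparison, rests on Gpr125-negative replicate 2 alone. Over the alternatives the FDR of Rgs5 ranged from 2.57e-13, by DESeq2 on the 4 libraries, to 1.

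The comparison of nipple-proximal Gpr125+ with Gpr125-negative cells asks the same of the reporter-positive cells near the nipple, and shares its control libraries with the comparison above. Again edgeR called 0 of 6 members (background 0%), 0 had an unadjusted p below 0.05 (background 3.55%), and DESeq2 called 0 on 4 libraries (background 2.02%) and 0 on 6 (background 1.98%). The estimate closest to a difference was Anpep, with a log2 fold change of −3.89 and a standard error of 1.89 (FDR = 1, edgeR). Both nipple-proximal libraries lay below both Gpr125-negative libraries for Pdgfrb, Des and Anpep, 3 of 6 members against 10.8% of genes, and above them for 0, against 19.9%. Rgs5 had a log2 fold change of −0.18 with a standard error of 2.63, and this value was set by single libraries: it became 10.87 without Gpr125-negative replicate 2 and −4.06 without nipple-proximal replicate 2.

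The comparison of TEB-distal with nipple-proximal Gpr125+ cells asks how the reporter-positive populations of the regions differ. By edgeR 0 of 6 members were called (background 0%), and Rgs5 and Des (FDR = 1 each) had an unadjusted p below 0.05, both lower in TEB-distal cells, where 2.21% of all genes had one in either direction. Both genes were at 0 counts in the TEB-distal libraries, so they could only come out lower. DESeq2 called Rgs5 lower on the 4 libraries (background 2.29%), and Rgs5 and Des lower on all 6 (background 0.743%). On the 4 libraries DESeq2 gave Des and Anpep no adjusted p, so they could not be called there. At a stricter adjusted p of 0.05 the DESeq2 call of Rgs5 would stand (FDR = 0.000396 on 4 libraries and 0.000626 on 6, in a range of 0.000396 to 1 over the alternatives), and that of Des would not (FDR = 0.0601 on 6, the lowest in a range up to 1). Rgs5 and Des were also the 2 members of 6 whose TEB-distal libraries lay below both nipple-proximal libraries, where 18.3% of genes did, and 0 lay above, where 15.2% did. For Rgs5 the difference was at least 74.2-fold on the means, but nipple-proximal replicate 1 held only 11 counts and alone gives at least 4.93-fold. Pdgfrb, Mcam and Anpep had log2 fold changes of 0.1, 0.34 and 0.21, each with a standard error above 1.4.

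**Figure D2:**
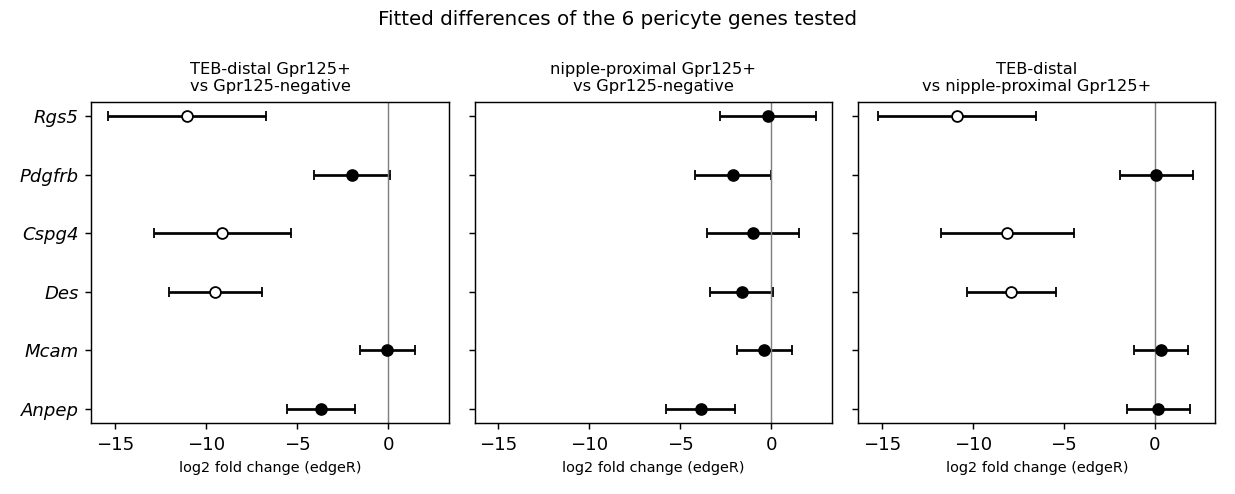
Log2 fold changes from edgeR on the x axis, with standard errors as bars, for the 6 pericyte genes tested in the 3 comparisons. Open circles mark fits in which the first group had 0 counts in both libraries, so that the fitted size is not a bound. Rgs5, Des and Cspg4 lie far below 0 where TEB-distal cells are compared, and Mcam lies near 0 in all 3.

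Against Gpr125-negative cells the estimates of the contractile genes pointed the other way. All 12 had estimates above 0 in TEB-distal against Gpr125-negative cells, as did 8817 of the 17268 genes tested, and 7 had an unadjusted p below 0.05. The list's median log2 fold change was 2.95, where the median of the pericyte genes tested was −6.39, or −4.06 with genes at 0 set to their bound, and that of all genes was 0.03. Rgs5, Des and Cspg4 were at 0 in both TEB-distal libraries and passed the filter through the other groups. They could only come out lower, so pericyte medians of comparisons with TEB-distal cells are partly fixed by the filter, with or without bounds. In nipple-proximal against Gpr125-negative cells the contractile median was 1.91, with all 12 estimates above 0, and the pericyte median −1.32, with all 6 below. Of all genes tested, 8561 had estimates above 0 and 8661 below in that comparison. Between the Gpr125+ populations they were 0.72 and −3.88, the latter −1.55 with bounds, and the signs were mixed in both lists, with 10 contractile estimates above 0 and 2 below, and 3 pericyte estimates above 0 and 3 below. Acta2 alone stood at 190 and 511 CPM in Gpr125-negative libraries, 1440 and 7770 in TEB-distal and 1400 and 3380 in nipple-proximal libraries. Its Gpr125-negative libraries lay below the other 4, whereas the groups overlapped for Tpm1 and Cald1, the next contractile genes by CPM. edgeR called 0 of the 12 in any comparison (7, 4 and 0 had an unadjusted p below 0.05), and DESeq2 on the compared libraries called 2, 2 and 0, all higher in the first group. Of all genes, 6.05%, 3.55% and 2.21% had such a p, and DESeq2 called 4%, 2.02% and 2.29%.

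Summed over the 9 genes, pericyte levels were 12.8 and 63.6 CPM in Gpr125-negative libraries, 7.56 and 26.9 in TEB-distal and 13.7 and 35.4 in nipple-proximal libraries, and these ranges overlapped. The 12 contractile genes summed to 911 and 2640, 3530 and 15300, and 3690 and 7800 CPM. The ratio of the sums was 1.41% and 2.41% in Gpr125-negative libraries, 0.214% and 0.176% in TEB-distal and 0.37% and 0.454% in nipple-proximal libraries, with means of 1.91 ± 0.712%, 0.195 ± 0.0274% and 0.412 ± 0.0591% (SD, n = 2). The 3 groups did not overlap, and with 2 libraries against 2 no exact permutation test can go below p = 0.333, so no test was made. The contractile sums were lowest in the Gpr125-negative libraries, so a higher ratio there does not by itself show a higher pericyte level.

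Mcam made up 70.1% and 99% of the pericyte sum in the TEB-distal libraries, against 6.04% and 50.6% in Gpr125-negative libraries and 79.5% and 40.7% in nipple-proximal libraries (shares of CPM, not adjusted for gene length). Without Mcam the ratio was 1.32% and 1.19% in Gpr125-negative libraries, 0.0641% and 0.00178% in TEB-distal and 0.0759% and 0.269% in nipple-proximal libraries. The TEB-distal libraries, which had the highest contractile sum in replicate 2, had the lowest ratios under either count, and these overlapped with no Gpr125-negative library. Per kilobase of exon, Rgs5 stood at 1.74% of Acta2 in Gpr125-negative replicate 2, at 0.0186% and 0.225% in the nipple-proximal libraries and at 0 in the other 3.

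**Figure D3:**
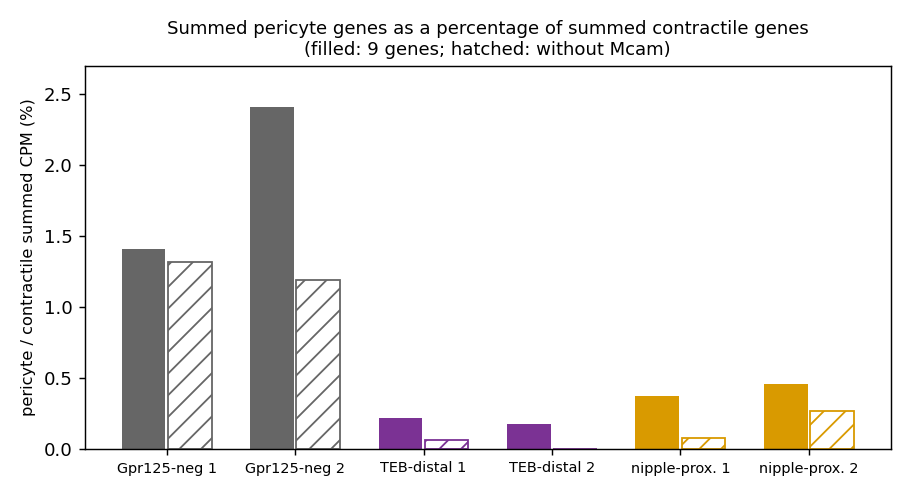
Summed CPM of the pericyte genes as a percentage of summed CPM of the 12 contractile genes (y axis) in each of the 6 libraries. Filled bars use all 9 genes and hatched bars leave out Mcam. The Gpr125-negative libraries stand at 1.41% and 2.41%, and the TEB-distal libraries at 0.214% and 0.176%.

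Genes of other cell types also stood at different levels in these groups. The 12 endothelial genes, led by Emcn, Egfl7 and Cldn5, summed to 1310 and 824 CPM in Gpr125-negative libraries, 20.6 and 23.7 in TEB-distal and 240 and 27.4 in nipple-proximal libraries, although cells with surface CD31 had been excluded. Pecam1, which encodes CD31, had 2017 and 1659 counts in Gpr125-negative libraries. In TEB-distal against Gpr125-negative cells the endothelial median log2 fold change was −4.99. Of the 12 genes, 8 had an unadjusted p below 0.05 (6.05% of all genes) and 9 did not overlap, all lower (10% of all genes). Calls numbered 0 by edgeR (0% of all genes) and 8 by DESeq2 on the compared libraries (4%). Of the 12, only Robo4 was at 0 in both TEB-distal libraries, where Pecam1 held 63 and 158 counts. In Gpr125-negative replicate 1, the library of highest endothelial sum, Mcam had 36 counts and Rgs5 had 0. In nipple-proximal replicate 2, where the endothelial sum was 27.4 CPM, Rgs5 stood at 15.7 CPM. Des, Anpep and Pdgfrb were higher in both Gpr125-negative libraries than in all 4 Gpr125+ libraries, as the endothelial sum was. The share of all genes with this pattern was not taken. Against the TEB-distal or the nipple-proximal libraries alone, 10% and 10.8% of all genes were lower in this way. Des, at 0 in both TEB-distal libraries, could only be lower there. Cspg4 had its highest mean in Gpr125-negative libraries too, at 2.39 CPM against 0 for TEB-distal and 1.18 CPM for nipple-proximal libraries. The part of endothelial or other vascular RNA in the levels of the 9 genes was not tested. In bulk samples, fewer cells of a type and less RNA per cell cannot be told apart.

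**Figure D4:**
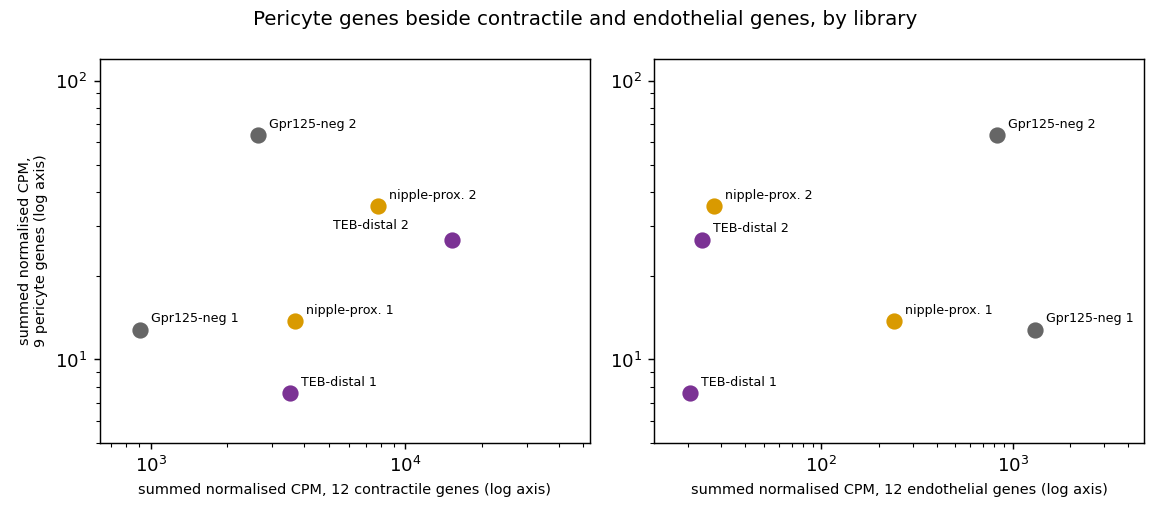
Summed CPM of the 9 pericyte genes (y axis, log) against summed CPM of the 12 contractile genes (left) and of 12 endothelial genes (right), both on log axes, with 1 point per library. The Gpr125-negative libraries have the lowest contractile and the highest endothelial sums, while the pericyte sums of the 3 groups overlap.

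Fabp4, expressed by adipocytes and capillary endothelium, carried most of the 6 adipocyte genes' sum, which was 672 and 635 CPM in Gpr125-negative libraries and at most 23.6 CPM in Gpr125+ libraries. Leukocyte genes, led by Lyz2, Fcer1g and Csf1r, summed to 13.3 to 49.9 CPM, erythroid genes to at most 1.32 CPM and skeletal muscle genes, led by Acta1 and Mylpf, to at most 7.76 CPM. Basal epithelial genes, led by Krt17, Krt14 and Krt5, summed to 3930 and 2970 CPM in Gpr125-negative, 2810 and 13100 in TEB-distal and 8520 and 11400 in nipple-proximal libraries. Unlike the contractile sums, they were lowest in TEB-distal replicate 1. Luminal genes, led by Krt8, Epcam and Krt18, summed to 1430 to 2910 CPM. The part of any of these lists in the pericyte gene levels was not tested.

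The 21 other mural genes summed to 45 and 61.1 CPM in Gpr125-negative libraries, 36.3 and 55.5 in TEB-distal and 61.1 and 43.1 in nipple-proximal libraries, and 11 of them passed the filter, with 0 called by edgeR in any comparison (3, 1 and 0 had an unadjusted p below 0.05, and DESeq2 on the compared libraries called 2, 2 and 0). Of all genes, 6.05%, 3.55% and 2.21% had such a p, and DESeq2 called 4%, 2.02% and 2.29%. Of the 3 mural genes with such a p, 2 were higher and 1 lower in TEB-distal cells, and the 1 in nipple-proximal cells was higher. The DESeq2 calls were 1 higher and 1 lower in each comparison with Gpr125-negative cells. Itga7, a laminin-binding integrin subunit, had the highest mean CPM of the list and lay higher in TEB-distal (17.1 and 37.8 CPM) than in Gpr125-negative libraries (4.45 and 4.84 CPM), with an edgeR FDR of 0.803. DESeq2 called it higher on all 6 libraries (FDR = 0.0993) but not on the 4 compared (FDR = 0.358). Ndufa4l2, a mitochondrial gene of mural cells that hypoxia induces, stood at 0.947 and 2.57 CPM in Gpr125-negative libraries, 1.4 and 7.22 in TEB-distal and 22.8 and 26 in nipple-proximal libraries. Gja4, a connexin of arterial endothelium and mural cells, ranged from 0.204 to 28.9 CPM and was highest in Gpr125-negative replicate 1. Notch3, the mural Notch receptor, had 101 and 1, 81 and 48, and 27 and 63 counts, and Vtn, a pericyte-secreted matrix protein, had 126 counts in Gpr125-negative replicate 2 and at most 2 elsewhere.

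Of 32 genes of the pathways that recruit and hold mural cells, 29 were tested and edgeR called 0 in any comparison. In TEB-distal against Gpr125-negative cells 2 had an unadjusted p below 0.05 in the higher direction and 5 in the lower, and DESeq2 on the compared libraries called 5, all lower: Tek and Tie1, receptors of the angiopoietin system, Angpt2, a ligand of Tek, Ednrb, an endothelin receptor, and S1pr1, a sphingosine 1-phosphate receptor. These 5 are expressed by endothelium too, and Tie1 is also on the endothelial list. Ednrb, for example, had 6668 and 5533 counts in Gpr125-negative libraries, 3 and 19 in TEB-distal, and 277 and 215 in nipple-proximal libraries. All 5 were lower in both TEB-distal than in both Gpr125-negative libraries, as the endothelial sum was, and its part in their levels was not tested. In nipple-proximal against Gpr125-negative cells these were 1, 3 and 2, and between the Gpr125+ populations 0, 3 and 3. Of all genes, 6.05%, 3.55% and 2.21% had an unadjusted p below 0.05 in either direction in the 3 comparisons, and DESeq2 called 4%, 2.02% and 2.29%. The ligand Pdgfb stood at 5.07 and 17.5 CPM in TEB-distal and 15.6 and 8.99 in nipple-proximal against 0.861 and 0 in Gpr125-negative libraries (edgeR FDR = 0.816 and FDR = 1). DESeq2 called it higher in TEB-distal cells on all 6 libraries (FDR = 0.0596) but not on the 4 compared (FDR = 0.175). Its receptor gene Pdgfrb had its highest level in Gpr125-negative cells. Pdgfa, Jag1 and Tgfbr2, the genes of this list with the highest CPM, had unadjusted p-values of 0.129 or more in all comparisons. Pdgfb and the 5 genes named before it were chosen for mention after their values were seen.

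For each tested member, the genes with the nearest centered log2 CPM profile over the 6 libraries were found among the other 17267. For Rgs5 these were Cyp4b1, at a root mean square difference of 0.58 log2 units, and Drp2, at 1.08. Cyp4b1 had 1 and 378 counts in Gpr125-negative, 0 and 0 in TEB-distal, and 4 and 161 in nipple-proximal libraries. For Des they were Ptgr2 (0.35) and Map3k13 (0.47), for Mcam Plcxd2 (0.34) and Prickle2 (0.39), for Anpep Ctla2b (0.31) and Gm48960 (0.33), for Pdgfrb Xlr3b (0.56) and Gm12207 (0.6), and for Cspg4 Gm15666 (0.67) and Cutal (0.75). None of the nearest genes was itself a member. Among the members, Des was nearest to Cspg4 (rank 309), to Rgs5 (rank 771) and to Anpep (rank 5029), and Anpep was nearest to Des (rank 540), to Pdgfrb (rank 2047) and to Mcam (rank 12208).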

How the data were processed

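RNA-seq of 6 libraries was analyzed, 2 per group, grouped by their titles. The authors aligned reads to mm10 with STAR (version not settled here: the submitters' processing notes name 2.7.3), counted them per gene with HTSeq without regard to strand and deposited raw counts, 1 table per library. The annotation release is not given in the sources used here. Coordinates and exon lengths are from the GRCm38 GENCODE annotation, which held 96.2% of the symbols.

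Counts were analyzed in R 4.3.3 with edgeR 4.0.16 (TMM, filterByExpr by group, robust quasi-likelihood fit of all 6 libraries, Benjamini-Hochberg over 17268 genes), with DESeq2 1.42.0 as an alternative. Levels under 3 counts were taken as not resolved. Log2 CPM used a prior count of 2. Scripts were tested on simulated counts. The members and all gene lists were chosen with earlier results of these data known. Named genes were the 9 members, contractile genes where compared, up to 3 genes of highest mean CPM per other list and the 2 nearest profiles per tested member. Rgs3, Rgs4, Rgs16, Notch3, Vtn, Art3, Pecam1, Robo4, Heyl, Trpc6, Kcnj11, Abcc8, Pdgfra, Pdgfb, Tek, Tie1, Angpt2, Ednrb and S1pr1 were added after values were seen. Alternatives were other tools, scaling, filters, the replicate block, the 4 compared libraries and leaving out each library.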

Additional observations from a re-analysis of the deposited data

How the results depend on the processing

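With DESeq2 on all 6 libraries, 3, 0 and 2 pericyte genes and 943, 321 and 129 genes in all were called in TEB-distal against Gpr125-negative, nipple-proximal against Gpr125-negative and TEB-distal against nipple-proximal cells. On the 4 libraries compared these were 3, 0 and 1 and 667, 317 and 360. With edgeR on every gene with at least 1 count they were 1, 0 and 1 and 137, 58 and 39, in each case Rgs5. Leaving out 1 library gave 0 to 1, 0 and 0 pericyte genes and 0 to 747, 0 to 335 and 0 to 12 genes, the highest counts of the first 2 comparisons without Gpr125-negative replicate 1 and of the last without nipple-proximal replicate 2. A group left with 1 library was assumed to vary like the others. The cause was not tested.

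Leaving out 1 library turned the direction of Mcam (−1.64 to 4.35 in TEB-distal against Gpr125-negative, −1.49 to 4.02 in nipple-proximal against Gpr125-negative, −1.27 to 1.14 between Gpr125+ populations), of Rgs5 (−4.06 to 10.87) and Cspg4 (−9.18 to 1.78) in nipple-proximal against Gpr125-negative cells, and of Pdgfrb (−4.63 to 2.09) and Anpep (−0.33 to 1.03) between Gpr125+ populations, all on the log2 scale. The libraries whose removal turned them were Gpr125-negative replicate 2 and TEB-distal replicates 1 and 2 for Mcam, Gpr125-negative replicate 2 and nipple-proximal replicate 1 for Rgs5, Gpr125-negative replicate 1 for Cspg4, TEB-distal and nipple-proximal replicate 1 for Pdgfrb, and TEB-distal and nipple-proximal replicate 2 for Anpep. Replicate numbers were not shown to pair the libraries (deviation correlations of −0.0347, 0.194 and −0.00494). With the replicate block edgeR called 0 genes, and the log2 fold changes that turned were Rgs5 at 2.03 in nipple-proximal against Gpr125-negative cells and Mcam at 0.67, 1.12 and −0.45 in the 3 comparisons.

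Without Mcam the pericyte to contractile ratio was 0.0329% in the TEB-distal group and 0.172% in the nipple-proximal group. As a difference of mean log2 CPM it was −10.7 in TEB-distal, −8.73 in nipple-proximal and −5.83 in Gpr125-negative cells, the same order. Leaving out 1 library gave 1.41 to 2.41%, 0.176 to 0.214% and 0.37 to 0.454%. Of the log2 fold changes of single members, 219 of the values under alternatives kept their direction and side of the threshold, 15 turned direction and 12 passed the threshold that they had missed.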
